A study of Rattus norvegicus with 18 samples.

Results

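The smooth muscle contractile genes form the machinery with which the muscle of the gut wall and of its blood vessels shortens and holds tension. The set holds 38 gene symbols, and its members are all probe sets that the array annotation gives to exactly 1 of those symbols. It comprised 70 probe sets of 36 genes, out of 14217 genes with such a probe set on the array. Pgm5 and Myl6 had none, and 5 probe sets that list Acta2 together with Actc1 were not used. RNA from scrapings of the colonic mucosa, 9 distal and 9 proximal, was measured on 18 Affymetrix rat arrays. Both regions came from the same animals, male Sprague Dawley rats whose labels number them 1 to 8 and 10. For 10 days the rats had been fed a modified AIN-93G diet, and they were killed 6 h after azoxymethane, a colon carcinogen, was given subcutaneously at 15 mg per kg. Each scraping covered 4 cm of the opened colon, and 4.5 µg of its RNA was processed for an array. No untreated rats were among the samples, the rats' allocation to the study's feeding groups is not in the labels, and rat 9 was not analysed here.

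In smooth muscle, calcium that enters through voltage-gated channels or leaves internal stores activates myosin light chain kinase. The kinase phosphorylates the regulatory light chain, and myosin then pulls on actin filaments that are anchored in dense bodies and at the cell membrane. In the colon, such cells make up the thin muscularis mucosae just under the mucosa, the thick outer muscle wall and the vessel walls. A scraping of the mucosa can take along varying amounts of them. In such bulk samples, fewer cells of a type and less RNA per cell cannot be told apart.

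Signals are given as log2(intensity + 16) after quantile normalization, a scale on which the fold of weak signals is understated. No probe set's level is set against another's, and precision is limited by the number of arrays. Of the members, 53 probe sets of 32 genes passed a filter that removed the weakest 30% of the array by mean signal, and 17 probe sets did not. A gene is given by its tested probe set of highest mean. Markers of the colonic epithelium were high on every array. The mean log2 signal of 10 epithelial genes lay between 12.64 and 12.79 in the distal arrays and between 12.56 and 12.88 in the proximal arrays. The lowest proximal value was that of rat 3, and the other proximal arrays lay between 12.75 and 12.88. Arrays of the distal colon of rats 3 and 7 and of the proximal colon of rat 3 stood apart in smooth muscle signal. Regional differences are given with and without them, and correlations between members mainly without them. In the proximal arrays of rats 3 and 6, Hoxb13, a homeobox gene of the hindmost gut, had log2 signals of 4.57 and 4.27, while the other 7 proximal arrays lay between 6.65 and 9.57.

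Among the genes of the thick filament and its regulation, Myh11, the smooth muscle myosin heavy chain, had log2 signals of 9.15, 8.56, 11.22, 8.19, 7.93, 7.94, 10.99, 8.32 and 8.54 in the distal arrays of rats 1 to 8 and 10, taken in that order. In the proximal arrays of the same rats it had 8.65, 7.87, 13.20, 9.37, 9.27, 8.62, 8.92, 8.54 and 9.87. The distal arrays of rats 3 and 7 and the proximal array of rat 3 lay above all others, with a gap to the next array in each region, and the remaining values of the regions overlapped. Relative to the median of the other arrays of its region, Myh11 was 7.45-fold and 6.35-fold higher in the distal arrays of rats 3 and 7 and 21.4-fold higher in the proximal array of rat 3. Myl9, the regulatory light chain of smooth muscle myosin, ranged from 6.16 to 10.33 with a median of 7.29 in the distal arrays, and from 6.53 to 12.99 with a median of 7.93 in the proximal arrays. Its highest values fell on the same 3 arrays, at 7.73-fold, 8.41-fold and 33.6-fold over the other arrays. Mylk, the kinase that phosphorylates Myl9, ranged from 9.72 to 11.55 (median 10.38) in the distal arrays and from 10.54 to 12.92 (median 10.81) in the proximal arrays. It stood out less, at 2.45-fold and 2.02-fold in the distal arrays of rats 3 and 7 and 4.38-fold in the proximal array of rat 3. Ppp1r14a, the inhibitor of myosin phosphatase known as CPI-17, was 2.84-fold, 3.44-fold and 9.62-fold above the other arrays there.

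On the thin filament, Actg2, the actin of visceral smooth muscle, ranged from 5.42 to 11.20 with a median of 6.94 in the distal arrays, and from 6.08 to 13.50 with a median of 7.42 in the proximal arrays. Acta2, the actin of vascular smooth muscle and of myofibroblasts, ranged from 7.68 to 10.25 (median 8.46) in the distal arrays and from 8.39 to 12.48 (median 8.71) in the proximal arrays. For both actins the 3 arrays of high Myh11 were the highest of their regions, but Actg2 was 11.1-fold, 20.8-fold and 71.9-fold above the other arrays, and Acta2 only 3.47-fold, 3.13-fold and 13.9-fold. Cnn1, the calponin restricted to smooth muscle, ranged from 4.56 to 9.37 (median 6.32) in the distal arrays and from 5.87 to 12.65 (median 6.63) in the proximal arrays. Its 73.0-fold excess in the proximal array of rat 3 was the highest of the 32 members. Its relatives Cnn2 and Cnn3, found also in other cells, were 2.12-fold and 1.75-fold higher in that array.

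Tagln, an actin-binding protein also called SM22, ranged from 5.04 to 10.61 (median 6.82) in the distal arrays and from 5.33 to 12.80 (median 7.38) in the proximal arrays. Tpm2, a tropomyosin of muscle, ranged from 5.68 to 10.82 (median 7.09) in the distal arrays and from 6.32 to 13.00 (median 7.44) in the proximal arrays. Cald1, caldesmon, which holds back the myosin ATPase on actin, ranged from 5.18 to 10.23 (median 6.80) in the distal arrays and from 5.76 to 12.40 (median 7.80) in the proximal arrays. These 3 genes had the largest excess in the distal array of rat 3, at 15.4-fold, 16.9-fold and 18.5-fold. A second tested probe set of Cald1 varied less, between 6.88 and 7.79 in the distal arrays and between 6.66 and 9.24 in the proximal arrays. Lmod1, a leiomodin that starts actin filaments in smooth muscle, ranged from 4.40 to 7.38 (median 5.52) in the distal arrays and from 4.30 to 9.26 (median 5.35) in the proximal arrays.

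The tropomyosin genes differed among themselves. Tpm1, which many cell types use in various splice forms, ranged from 12.00 to 12.44 (median 12.11) in the distal arrays and from 11.59 to 13.16 (median 11.70) in the proximal arrays. Tpm4, a tropomyosin found mainly outside muscle, ranged from 11.71 to 12.01 (median 11.83) in the distal arrays and from 11.42 to 11.65 (median 11.45) in the proximal arrays, without overlap. Neither stood out in the distal arrays of rats 3 and 7, where Tpm1 was at 1.02-fold and 1.25-fold and Tpm4 at 1.00-fold and 1.09-fold of the other arrays. In the proximal array of rat 3, Tpm1 was at 2.77-fold and Tpm4 at 0.947-fold, whereas Tpm2 was at 53.8-fold.

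**Figure D1:**
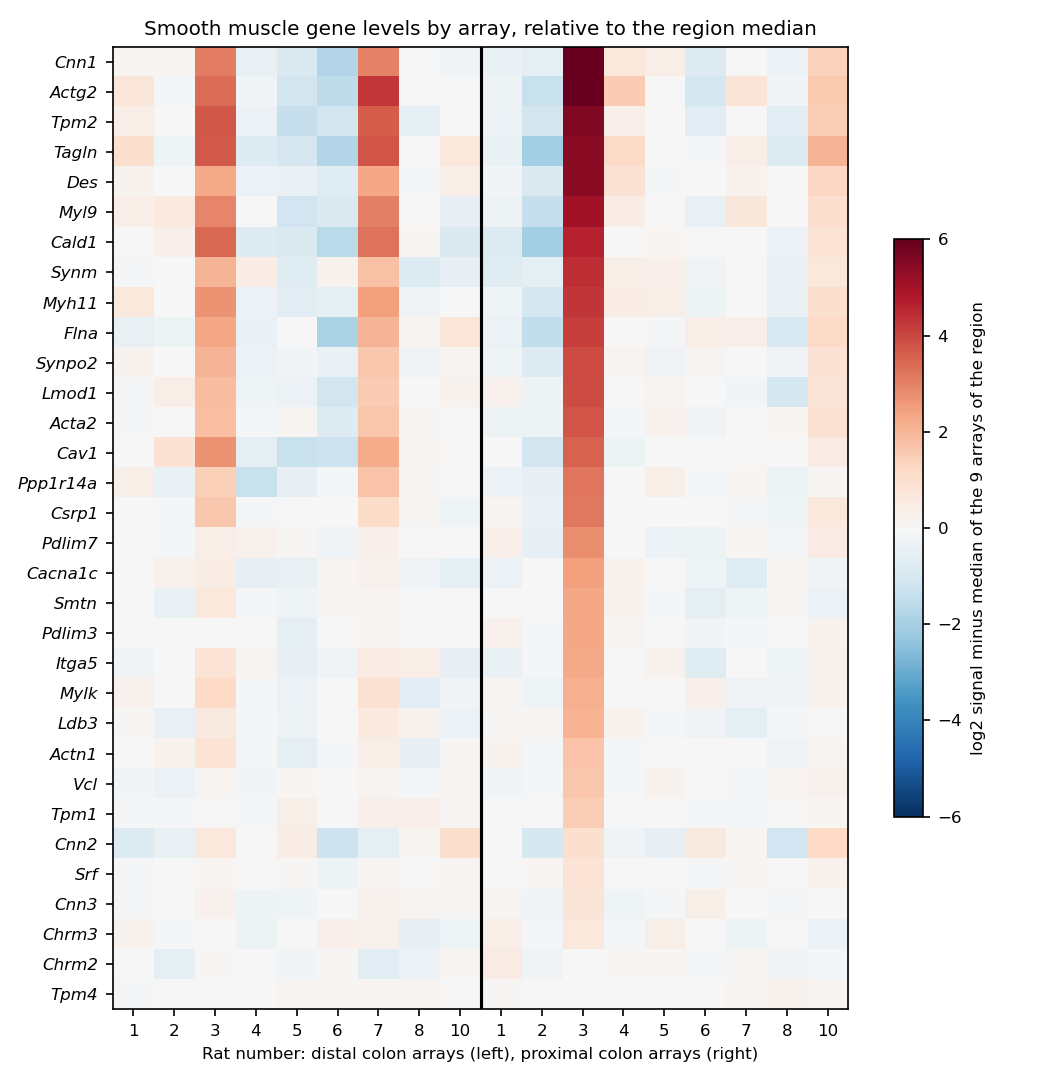
Heat map of the 32 tested smooth muscle genes, 1 row a gene and 1 column an array, with distal arrays on the left and proximal arrays on the right. Colour is the log2 signal minus the median of the 9 arrays of that region, and rows run by the excess in the proximal array of rat 3. The columns of distal rats 3 and 7 and proximal rat 3 are red from Cnn1 down to Csrp1, and the rows from Srf to Tpm4 are pale.

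Of the intermediate filaments, dense bodies and cross-linkers, Des, the desmin of muscle intermediate filaments, ranged from 7.11 to 10.18 (median 7.85) in the distal arrays and from 6.17 to 12.48 (median 7.05) in the proximal arrays. Synm, synemin, which joins desmin filaments to other structures, ranged from 6.29 to 9.17 (median 7.12) in the distal arrays and from 6.35 to 11.53 (median 7.08) in the proximal arrays. Synpo2, an actin-bundling protein of dense bodies, ranged from 6.17 to 8.61 (median 6.57) in the distal arrays and from 5.73 to 10.44 (median 6.51) in the proximal arrays. For all 3 genes the arrays of distal rats 3 and 7 and proximal rat 3 were the highest of their region, with Des at 5.13-fold, 5.39-fold and 43.4-fold over the others. Smtn, smoothelin, a marker of contractile muscle cells that has a form in other cells too, ranged from 8.41 to 9.50 (median 8.84) in the distal arrays and from 8.29 to 11.17 (median 8.86) in the proximal arrays. It stood out in the proximal array of rat 3, at 5.14-fold, and hardly in the distal arrays of rats 3 and 7, at 1.62-fold and 1.15-fold. Flna, a cross-linker of actin, was at 6.10-fold, 5.02-fold and 18.3-fold in these arrays, and Csrp1, a LIM protein of smooth muscle, at 3.13-fold, 2.20-fold and 8.92-fold. The LIM proteins Pdlim3, Pdlim7 and Ldb3 and the cross-linker Actn1 were between 0.969-fold and 1.83-fold in the distal arrays of rats 3 and 7, against 3.32-fold to 7.11-fold in the proximal array of rat 3.

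The adhesion genes Vcl, which couples actin to the membrane, and Itga5, a fibronectin receptor subunit, were at 1.21-fold to 1.99-fold in the distal arrays of rats 3 and 7 and at 3.27-fold and 4.91-fold in the proximal array of rat 3. Among receptors, channels and caveolae, Chrm2 and Chrm3 are the muscarinic receptors through which acetylcholine contracts gut muscle, and Chrm3 also serves epithelial secretion. Chrm2 ranged from 5.38 to 6.13 (median 6.04) in the distal arrays and from 5.45 to 6.18 (median 5.67) in the proximal arrays. Chrm3 ranged from 6.43 to 7.19 (median 6.91) in the distal arrays and from 6.90 to 7.86 (median 7.23) in the proximal arrays. In the proximal array of rat 3 the receptors were at 1.00-fold and 1.58-fold of the other arrays, and Chrm3 had its highest proximal value there. Cacna1c, the pore of the L-type calcium channel, ranged from 4.99 to 6.02 (median 5.59) in the distal arrays and from 5.01 to 8.18 (median 5.74) in the proximal arrays, with the highest value in rat 3. Cav1, the main protein of caveolae and abundant also in endothelium, was at 6.57-fold, 4.76-fold and 11.8-fold in the 3 arrays of high Myh11.

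Myocd and Srf encode a coactivator and the DNA-binding factor that together switch on smooth muscle genes. Srf ranged from 9.11 to 9.55 (median 9.41) in the distal arrays and from 9.01 to 9.93 (median 9.11) in the proximal arrays. Myocd lay below the filter, between 4.63 and 6.07 (median 5.61) in the distal arrays and between 4.95 and 7.67 (median 5.13) in the proximal arrays, with the highest value in rat 3. The other untested genes were also weak. Kcnmb1, the muscle subunit of the calcium-activated potassium channel, lay between 4.93 and 5.62 (median 5.36) in the distal arrays and between 4.50 and 6.93 (median 5.22) in the proximal arrays, again with rat 3 highest. Probe sets of Itga8, an integrin subunit, lay between 4.53 and 5.99 in the distal arrays and between 4.12 and 6.02 in the proximal arrays, and Ppp1r12b, a subunit of myosin phosphatase, between 4.69 and 5.67 in the distal and between 4.57 and 5.60 in the proximal arrays.

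Srf binds the CArG box, which has CC, then 6 bases of A or T, then GG, a pattern that is the same on both strands. The 250 bases before the start of each gene were searched in the RefSeq promoters of GRCr8, which held 34 promoters of 32 of the 38 members. A full box was present in 3 of the 34 (Cnn2, Srf and Ldb3), while 1.5% of all 33469 promoters held one. With 5 of the 6 central bases being A or T, 5 of the 34 held a box, adding Acta2 and Itga5, against 8.08% of all promoters. The windows of Acta2 (chr1:241172504-241172753, minus strand) and Srf (chr9:21923826-21924075, plus strand) are shown because each holds 2 boxes, in capitals, of which those of Acta2 are of the looser kind. The matches describe letters, and binding was not measured.
Acta2: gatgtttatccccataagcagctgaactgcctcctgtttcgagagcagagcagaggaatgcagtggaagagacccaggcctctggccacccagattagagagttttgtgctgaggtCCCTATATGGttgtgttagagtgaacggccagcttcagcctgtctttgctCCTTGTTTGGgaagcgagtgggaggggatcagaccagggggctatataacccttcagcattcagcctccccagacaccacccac
Srf: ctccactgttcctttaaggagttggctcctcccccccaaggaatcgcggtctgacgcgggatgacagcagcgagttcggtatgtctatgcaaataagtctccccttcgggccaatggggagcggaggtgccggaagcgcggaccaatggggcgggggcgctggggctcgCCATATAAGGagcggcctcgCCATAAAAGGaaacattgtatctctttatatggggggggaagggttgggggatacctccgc

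As a description of the 3 arrays over all 32 tested members, 17 genes were at least 2-fold above the median of the other 7 arrays in the distal array of rat 3, where 3.91% of all 11407 genes were. In the distal array of rat 7 it was also 17 of 32, against 2.69% of all genes, and in the proximal array of rat 3 it was 27 of 32, against 6.48%. Lmod1 and Cacna1c had a mean log2 signal below the filter of 5.54 over the other 15 arrays and passed it only through these 3 arrays. With the filter taken over the other 15 arrays, chosen after the data were seen, it was 16 of 30 members in the distal array of rat 3 (3.64% of 11316 genes), 16 of 30 in that of rat 7 (2.46%) and 25 of 30 in the proximal array of rat 3 (6.05%). The median member was higher by 1.40 and 1.07 on the log2 scale in the distal arrays of rats 3 and 7 and by 2.99 in the proximal array of rat 3, and the medians of all genes lay between -0.07 and 0.00. Members, 32 of all 11407 genes, made up 10, 10 and 16 of the 100 genes of largest excess in these arrays. That ranking used the filter over all arrays, with Lmod1 and Cacna1c in it. Genes far above the rest in one array tended to be so in the others. Across the 32 genes, the excess in the proximal array of rat 3 correlated with that in the distal array of rat 3 (Pearson r 0.905, Spearman rho 0.913) and of rat 7 (r 0.913, rho 0.914). This is a description across genes, which are not independent replicates, and over all genes r was 0.606 and 0.544 and rho 0.397 and 0.266.

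**Figure D2:**
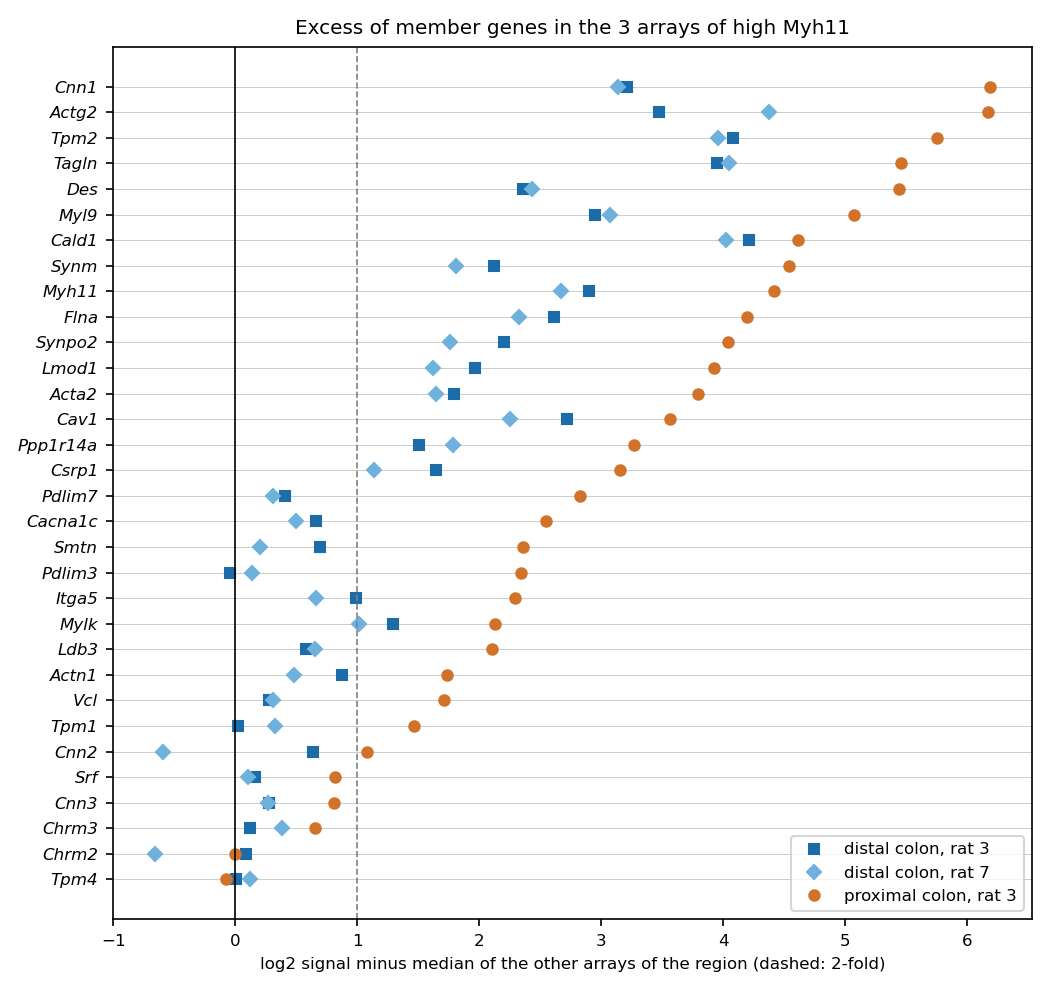
Each row is a member gene, and each symbol the log2 signal in 1 array minus the median of the arrays of its region other than distal rats 3 and 7 and proximal rat 3. Dark squares stand for distal rat 3, light diamonds for distal rat 7 and circles for proximal rat 3, and the dashed line marks a 2-fold excess. The circles reach 6.19 for Cnn1, and at the bottom Tpm4 lies near 0 in all 3 arrays.

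Markers of some other cell types, but not of all, were higher together with the muscle genes in these arrays. The 8 fibroblast markers, such as Dcn and Lum, which encode matrix proteoglycans, had a median excess of 3.20 and 3.71 in the distal arrays of rats 3 and 7 and of 2.89 in the proximal array of rat 3, with 8, 7 and 8 genes at least 2-fold higher. Their mean log2 signal was 10.02, 10.47 and 11.28 there, and lay between 6.57 and 7.84 in the other distal arrays and between 6.41 and 8.87 in the other proximal arrays. Pericyte markers (4 of 5 tested) had a median excess of 1.24, 1.18 and 1.48, and endothelial markers (5 of 6 tested) of 1.35, 0.76 and 1.64. Of these, 3, 2 and 2 pericyte markers and 3, 2 and 3 endothelial markers were at least 2-fold higher. Markers of enteric neurons, of which 5 of 10 were tested, were higher in the proximal array of rat 3, by a median of 2.17, and not in the distal arrays of rats 3 and 7, at 0.10 and 0.06. The 3 adipocyte markers tested had a median excess of 3.79, -1.15 and 1.20. Immune cell markers (5 of 6 tested) were at 0.31, -0.93 and -0.01. Markers of interstitial cells of Cajal (3 of 4 tested) were at 0.18, 0.12 and 0.35, and those of enteric glia (2 of 6 tested) at 1.18, -0.16 and 0.97.

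The 10 epithelial markers were at -0.05, 0.00 and -0.21, and the 4 skeletal muscle markers tested at -0.01, -0.18 and -0.11. Actins and myosins that all cells use, such as Actg1 and Myh9, were at a median of 0.08, -0.08 and -0.18. Of 30 other genes of muscle structure that were tested, 15, 12 and 21 were at least 2-fold higher. Among 22 other genes of contraction signalling it was 5, 2 and 10. Pln, phospholamban, the brake on the calcium pump of the internal store, was 22.3-fold higher in the proximal array of rat 3 and at 0.723-fold and 0.686-fold in the distal arrays of rats 3 and 7. Pcp4, a calmodulin-binding peptide, had the same pattern, at 32.8-fold, against 1.09-fold and 0.71-fold in the 2 distal arrays. The part of each cell type in the excess, and how much of the muscle wall each scraping held, was not tested.

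**Figure D3:**
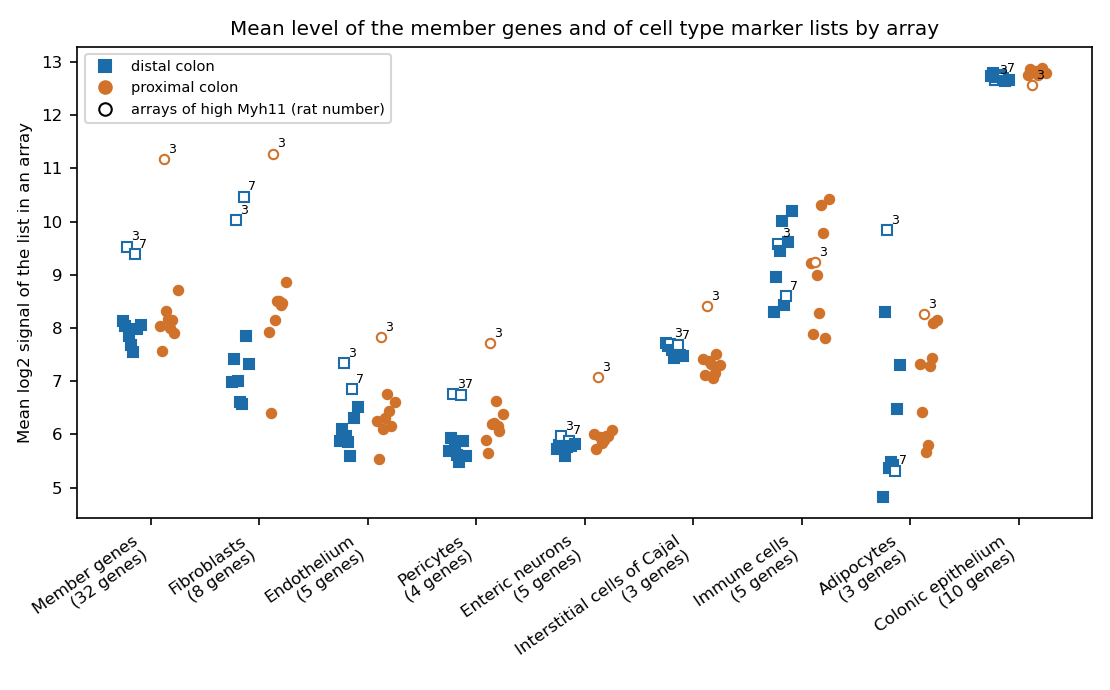
Mean log2 signal of the tested genes of each list in an array, with distal arrays as squares left of the proximal arrays as circles. Open symbols, labelled with the rat number, are distal rats 3 and 7 and proximal rat 3. They lie above the others for the member genes and for the fibroblast, pericyte and endothelial markers, and within 12.56 to 12.69 for the epithelial markers. For the immune cell markers they lie among the others.

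Distal and proximal colon were then compared over all 18 arrays. Tpm4 was higher in the distal colon, by 0.36 ± 0.05 on the log2 scale (moderated SE, 9 arrays each), which is 1.28-fold, with an adjusted p of 1.06e-05 (limma), and in 9 of 9 rats. Chrm3 was lower in the distal colon, by -0.43 ± 0.14, with an adjusted p of 0.0266 (limma), and in 8 of 9 rats. No other member of the 32 passed, so 1 was higher and 1 lower in the distal colon, where 16.2% of all genes were higher and 14.5% lower. On the level of probe sets, 4 of the 53 tested were higher and 1 lower in the distal colon, and 26.5% of all probe sets passed. Values of the regions did not overlap for Tpm4 alone, and for 6.89% of all genes. The median difference was -0.21 over the members and 0.01 over all genes, and 3 of the 32 members had an unadjusted p below 0.05 (limma), against 41.7% of all genes.

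These calls have limits. With the deposited scaling kept, Tpm4 no longer passed (0.22, adjusted p 0.205, limma), while Chrm3 did, and 3.95% of all genes were higher and 13.6% lower in the distal colon. Chrm3 was lost when rat 3, 4, 5 or 8 was left out (adjusted p between 0.0528 and 0.0661, limma). With the rat as a replicate block, Mylk was lower as well, at -0.55 and an adjusted p of 0.0205 (limma), against 0.164 without the block, which made 1 member higher and 2 lower, against 19.5% and 17.4% of all genes. The 4 probe sets that were higher were both tested probe sets of Tpm4 and 2 of the 6 of Tpm1, which measure different stretches of a gene with many splice forms. Those of Tpm1 were higher by 0.78 (adjusted p 0.000295, limma) and 0.70 (adjusted p 0.00711, limma), and the 1 that stands for the gene by 0.33 (adjusted p 0.133, limma). The 2 probe sets of Vcl with the highest signal differed in sign, at 0.20 and -0.21, as did those of Cald1, at -0.94 and 0.09, and none of these passed.

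The spread between arrays was far larger for the members than for other genes. In the distal colon the SD of the median member was 0.69, against 0.21 for the median gene, and in the proximal colon 1.04, against 0.22. Without the arrays of distal rats 3 and 7 and proximal rat 3 it was 0.32 against 0.19 in the distal colon and 0.34 against 0.20 in the proximal colon.

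Without these 3 arrays, 5 members were higher in the distal colon and 4 lower, against 15.1% and 15.5% of all genes, in a fit chosen after the data were seen (limma, 7 distal and 8 proximal arrays). The higher ones were Tpm1 by 0.48 ± 0.07 (SE), Tpm4 by 0.34 ± 0.05, Pdlim3 by 0.51 ± 0.09, Vcl by 0.33 ± 0.09 and Srf by 0.22 ± 0.07. The lower ones were Cald1 at -1.25 ± 0.35, Cav1 at -0.95 ± 0.29, Mylk at -0.58 ± 0.12 and Chrm3 at -0.41 ± 0.14. The arrays left out were picked by high signals of the members themselves. Differences, SEs and calls of this fit depend on that choice and describe the remaining arrays only. An unadjusted p below 0.05 (limma) was reached by 16 of the 32 members, against 42.0% of all genes. Tpm1 and Tpm4 did not overlap between the regions, against 10.0% of all genes. Among the core muscle genes, Myh11 (-0.52 ± 0.25, adjusted p 0.132), Actg2 (-0.91 ± 0.43, adjusted p 0.133), Tagln (-0.91 ± 0.50, adjusted p 0.198) and Des (0.51 ± 0.25, adjusted p 0.148) did not pass in this limma fit. Fibroblast markers moved with it too, since 5 of 8 were lower in the distal colon without these arrays and 0 of 8 with all arrays. With all 4 arrays of rats 3 and 7 left out, the same 5 and 4 genes passed, against 14.5% and 14.6% of all genes. Without the proximal arrays of rats 3 and 6 alone, the same 5 were higher and 0 were lower, against 14.9% and 14.6% of all genes, and Chrm3 had the lowest adjusted p of those no longer called (0.0639, limma).

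**Figure D4:**
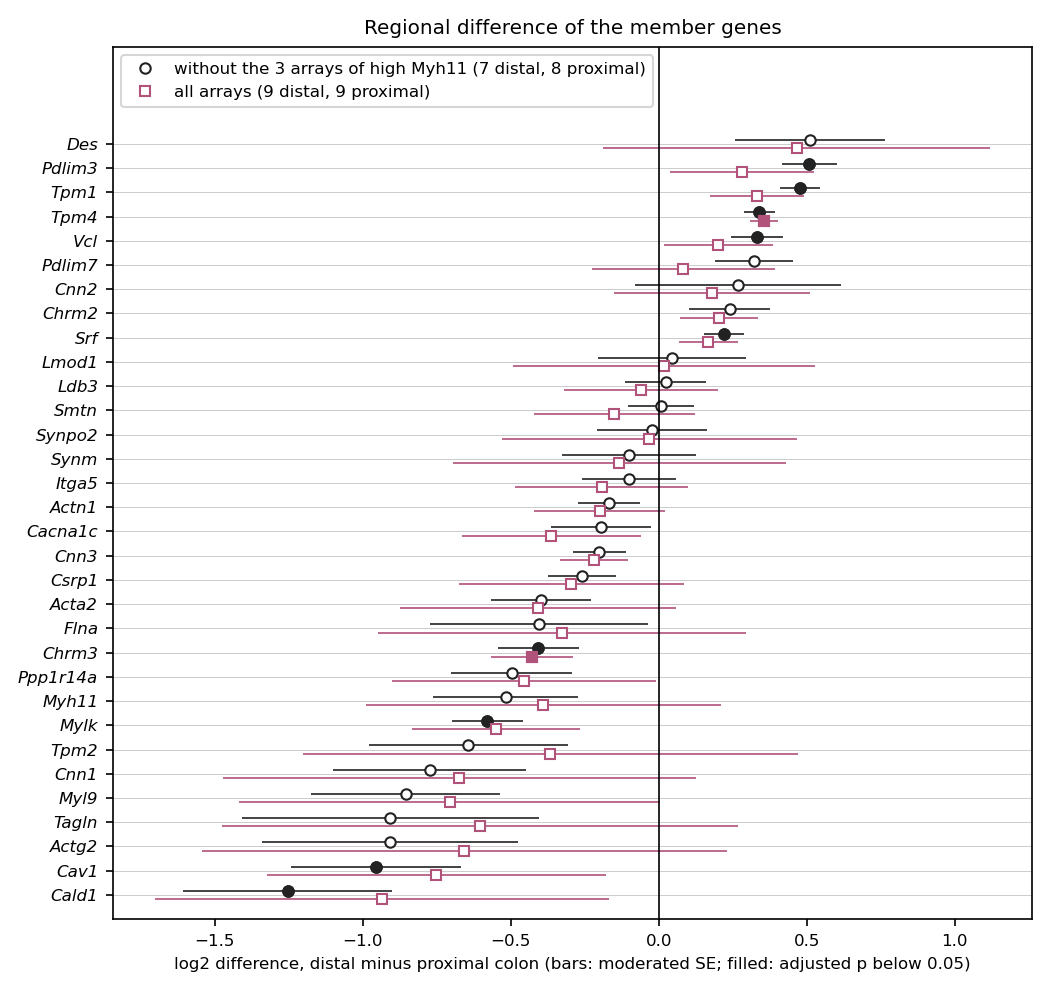
Distal minus proximal difference of each member gene on the log2 scale, with limma's moderated SE as bars. Circles are from the fit without distal rats 3 and 7 and proximal rat 3, squares from all arrays, and filled symbols passed an adjusted p of 0.05. With all arrays, Tpm4 and Chrm3 alone are filled and bars are wide for genes such as Myh11, and 9 circles are filled.

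Of the other genes of contraction, tested over all arrays with limma, 1 of 22 in contraction signalling was higher and 3 were lower in the distal colon. The lower ones were Kcnma1, the pore of the calcium-activated potassium channel (-1.48 ± 0.29, adjusted p 0.000676), Ppp1cb, the catalytic subunit of myosin phosphatase (-0.62 ± 0.06, adjusted p 3.52e-07), and Atp2a2, a calcium pump (-0.19, adjusted p 0.00462). The higher one was Htr2a, a serotonin receptor (0.40, adjusted p 0.03). Kcnma1, Ppp1cb and Atp2a2 were lower in the distal array of all 9 rats. With the deposited scaling Kcnma1 and Ppp1cb passed, and Atp2a2 (adjusted p 0.0761, limma) and Htr2a (adjusted p 0.266, limma) did not. Without the 3 arrays of high Myh11, 2 of the 22 were higher and 5 lower. In muscle structure, 4 of 30 were higher (Fhl1, Fhl2, Zyx and Ckb) and 3 lower (Itga7, Filip1l and Pcp4). With the deposited scaling 0 were higher and 3 lower. With the rat as a replicate block 4 were higher and 7 lower, the 4 added being Sgcb, Cryab, Pdlim4 and Parva (adjusted p between 0.0141 and 0.0301, limma). Without the 3 arrays 4 were higher and 11 lower. These counts stand against 16.2% of all genes higher and 14.5% lower over all arrays, 3.95% and 13.6% with the deposited scaling, 19.5% and 17.4% with the block, and 15.1% and 15.5% without the 3 arrays. Of the actins and myosins of all cells, 1 of 7 was higher (Myh9), and of other regulators of smooth muscle genes 1 of 9 (Mrtfa, a coactivator of Srf), and both calls were lost with the deposited scaling. With the block, Tead1, a DNA-binding factor, was lower too (adjusted p 0.00881, limma, against 0.0806 without it). Without the 3 arrays, 1 of 7 actins and myosins was higher and 0 lower, and 1 of 9 regulators higher and 2 lower.

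The members' variation together was examined within each region against Myh11, without the arrays that stood apart, which left 7 distal and 8 proximal arrays. Myh11 was given by its probe set of highest mean, so the values rest on that probe set. A second tested probe set of Myh11 followed it less closely than several other members did. Its r was 0.593 over the distal arrays (exact permutation p 0.154, rho 0.429) and 0.540 over the proximal arrays (exact permutation p 0.163, rho 0.595). Tpm2 had the highest rho with Myh11 among the members in both regions. Over the distal arrays r was 0.917 (exact permutation p 0.00258, adjusted p 1.0) and rho 0.964 (p 0.00278, adjusted p 1.0), and over the proximal arrays r was 0.946 (exact permutation p 0.000422, adjusted p 0.857) and rho 0.976 (p 0.000397, adjusted p 0.616). Without the 2 arrays farthest from the median Myh11 level r was 0.941 and 0.912. Tagln had r of 0.891 over the distal and 0.955 over the proximal arrays (rho 0.857 and 0.952), and 0.891 and 0.801 without the 2 farthest arrays. Actg2 had r of 0.893 and 0.873, Des 0.809 and 0.916, Synpo2 0.842 and 0.850, Cnn1 0.758 and 0.916, and Myl9 0.750 and 0.877, each for the distal and then the proximal arrays. Without the 2 farthest arrays, r was 0.814 and 0.729 for Actg2, 0.930 and 0.660 for Des, 0.889 and 0.944 for Cnn1 and 0.625 and 0.532 for Myl9. For Synpo2 it was 0.930 over the distal arrays but 0.232 over the proximal arrays, so the relation of this probe set there rests on the arrays of rats 2 and 10, while a second probe set of Synpo2 had 0.949 and, without these arrays, 0.901.

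No member passed after adjustment over the 21728 probe sets, and neither did any of all 11406 genes (exact permutation of pairings, 0 of 31 members in each region). With so few arrays, the number of pairings limits how small p can be, so the lack of calls says little about the members. The smallest unadjusted p of any probe set was 0.000397 over the distal and 0.000149 over the proximal arrays (exact permutation). The smallest adjusted p was 1.0 over the distal and 0.857 over the proximal arrays. At an unadjusted p below 0.05, 6 of 31 members correlated positively over the distal arrays, against 1.37% of all genes, and 14 of 31 over the proximal arrays, against 3.2%. An r of at least 0.8 was reached by 5 members over the distal arrays, against 0.815% of all genes, and by 11 over the proximal arrays, against 1.12%. With Spearman's rho it was 6 over the distal arrays (1.17% of all genes) and 5 over the proximal arrays (1.1%), and with Actg2 in place of Myh11 it was 5 (1.07%) and 6 (0.964%). Without the 2 arrays farthest from the median Myh11 level, the 5 distal genes still had r of at least 0.8, over 5 arrays. Of the 11 proximal genes, 4 did, over 6 arrays, namely Cnn1, Synm, Tagln and Tpm2. The other 7 lay between 0.232 (Synpo2) and 0.729 (Actg2), among them Acta2 (0.458, against 0.805 before), Flna (0.307, against 0.831) and Cald1 (0.585, against 0.895). Cav1 changed sign over the proximal arrays, with r of -0.721 without these 2 arrays, against 0.740 with them. A second probe set of Cald1 did not follow Myh11, with r of 0.19 over the 7 distal and -0.18 over the 8 proximal arrays. The median r of the members was 0.30 in the distal and 0.64 in the proximal colon, and -0.01 in both over all genes. With the deposited scaling the median over all distal genes was 0.38 and that of the members 0.54. Between any pair of members the median r was 0.09 in the distal and 0.36 in the proximal colon, and between any pair of all genes it was 0.00466 and -0.00048. An r above 0.8 was found in 6.65% of member pairs in the distal colon, against 2.06% of all pairs, and in 12.3% in the proximal colon, against 1.45%. With all 9 arrays of a region, the median r of the members with Myh11 was 0.85 in the distal and 0.95 in the proximal colon. An r of at least 0.8 was then reached by 18 of 31 members (3.23% of all genes) and 26 of 31 (6.13%). These values over 9 arrays rest on the arrays that stood apart and are given as a description.

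By role, the 11 thin filament genes had a median r of 0.57 in the distal colon (range -0.776 to 0.917) and 0.81 in the proximal colon (-0.103 to 0.955). The 3 thick filament genes had 0.52 (0.489 to 0.750) and 0.79 (0.444 to 0.877). For the 10 genes of intermediate filaments, dense bodies and cross-linkers it was 0.21 (-0.311 to 0.842) and 0.71 (-0.145 to 0.916). For the 4 of receptors, channels and caveolae it was 0.15 (-0.072 to 0.674) and 0.11 (-0.240 to 0.740). The ranges overlap, and differences between the roles were not tested. In the distal colon, the probe set that stands for Tpm4 ran against Myh11 (r -0.776, exact permutation p 0.0347, adjusted p 1.0). In the proximal colon its r was 0.146. Its distal r was -0.457 without the 2 farthest arrays, and its distal rho was -0.714 (exact permutation p 0.0881). A second probe set of Tpm4 had r of -0.06 and -0.17, so the opposite movement rests on 1 probe set. The probe sets that stand for Smtn (-0.08 and -0.14), Chrm3 (0.08 and -0.24), Cacna1c (0.21 and -0.01) and Srf (0.07 and 0.24) showed little relation. Another probe set of Srf had r of 0.05 and 0.63, and a further one -0.08 and 0.43. The former had rho of 0.833 over the proximal arrays (exact permutation p 0.0154, adjusted p 0.958) and r of 0.925 without the 2 farthest arrays. A second probe set of Smtn had 0.12 and -0.57. Synm had r of 0.04 in the distal and 0.88 in the proximal colon, where it was 0.883 without the 2 farthest arrays. Csrp1 had r of -0.31 and 0.80, and its proximal relation did not hold, since r was 0.122 without the 2 farthest arrays and rho over all 8 was 0.619 (exact permutation p 0.115). Differences between regions were not tested. Fibroblast markers moved with Myh11 in the same arrays, at a median r of 0.42 and 0.70, with all 8 above 0 in both regions. Pericyte markers were at 0.11 and 0.68, endothelial markers at 0.07 and 0.62 and epithelial markers at 0.03 and -0.20. Immune cell markers were at -0.38 in the distal colon, with 0 of 5 above 0, and at 0.51 in the proximal colon, with 5 of 5 above 0. The part of these cell types in the members' correlations was not tested.

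**Figure D5:**
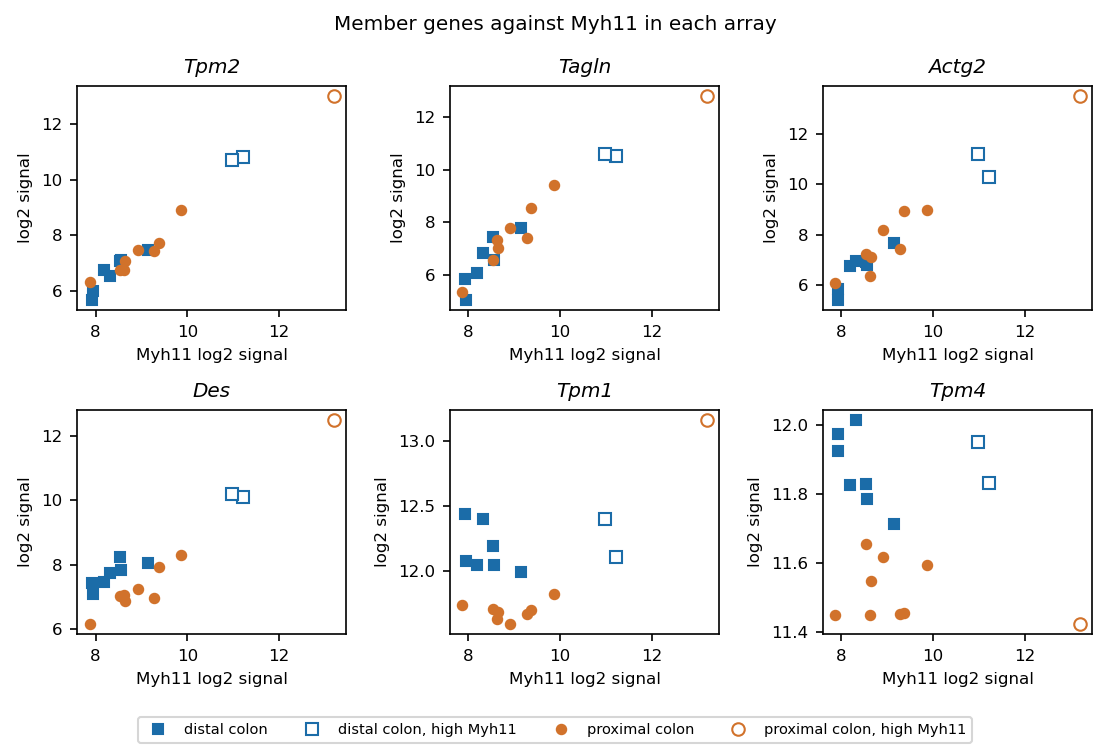
Log2 signal of 6 member genes against that of Myh11, 1 point an array, with squares for distal and circles for proximal colon and open symbols for distal rats 3 and 7 and proximal rat 3. Tpm2, Tagln, Actg2 and Des climb with Myh11 among the filled symbols as well as up to the open ones. Among the filled symbols, Tpm1 and Tpm4 lie higher in the distal arrays and show no such climb.

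Whether a rat that was high in one region was also high in the other could be asked over 9 rats, of which rat 3 was high in both and rat 7 in the distal colon only. Over all 9 rats, Myh11 in distal and proximal colon had r of 0.60 (exact permutation p 0.0998, adjusted p 0.446) and rho of 0.18 (exact permutation p 0.644). The median r of the 32 members was 0.59, against 0.27 for all genes, and 31 of 32 lay above 0, against 72.8% of all genes. These values rest on rat 3. Without rat 3, Myh11 in distal and proximal colon had r of -0.06 (exact permutation p 0.867) and rho of -0.17 (exact permutation p 0.703) over 8 rats. The median r of the members over these 8 rats was 0.06, against 0.20 for all genes, and 20 of 32 lay above 0, against 67.4% of all genes. No member passed with all rats or without rat 3 (exact permutation, 0 of 32, against 0.0% of all genes). The number of pairings of 8 or 9 rats limits how small p can be, so this lack of calls says little. At an unadjusted p below 0.05 (exact permutation) it was 2 of 32 with all rats, against 13.1% of all genes, and 1 of 32 without rat 3, against 10.2%.

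The 12 genes outside the set whose level was most like that of Myh11, by the smaller of the 2 correlations within the regions over 9 arrays each, were Cryab, Sparcl1, Col8a2, Irag1, Serpine2, Rbpms, Fstl1, Dtna, Nid1, Cavin2, Zcchc24 and Abcg4. The ranking includes the 3 arrays of high Myh11. Without these, Cryab had r of 0.96 over 7 distal and 0.87 over 8 proximal arrays. Cryab is a small heat shock protein of muscle and lens. Its log2 signals in those 7 distal arrays lay between 4.22 and 5.07 (median 4.48), all below the filter level. The distal r of Cryab therefore rests on weak signals. In those 8 proximal arrays Cryab lay between 4.52 and 6.41 (median 5.71). Nid1, a basement membrane protein, had r of 0.42 over the 7 distal and 0.66 over the 8 proximal arrays. Sparcl1, a matrix protein, was 10.3-fold and 9.52-fold above the other arrays in the distal arrays of rats 3 and 7 and 28.5-fold in the proximal array of rat 3. Serpine2, a protease inhibitor, was at 9.11-fold, 6.71-fold and 5.36-fold, and its largest fold was in the distal colon. Its highest log2 signal was in the proximal array of rat 3 (8.77, against 8.33 and 7.89 in those distal arrays). In the other distal arrays Serpine2 lay between 4.72 and 5.56 (median 5.14), against a proximal median of 6.35. Its distal folds therefore rest on weak signals.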

How the data were processed

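Expression was measured on 18 arrays, 9 distal and 9 proximal, grouped by region from the labels. The authors deposited linear signal intensities for 31099 probe sets. Per the submitters' processing notes these intensities are MAS5 output; its version and scaling target were not stated. The 57 control probe sets were left out. The trimmed mean of the intensities (2% at each end) ran from 210.3 to 341.2 between arrays, so log2(intensity + 16) was quantile-normalized, which removes any overall shift. The weakest 30% by mean, below a log2 signal of 5.54, were removed, which left 21729 for testing. At most 0.00644% of values were identical in any of 153 pairs of arrays.

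Symbols came from the array annotation, whose names can be out of date, with 20826 probe sets of 1 symbol, 436 of several and 9780 unnamed here. The GRCr8 gene table held all 70 member probe sets and changed 0 symbols. A gene was given by its tested probe set of highest mean, and 13 members had several.

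Distal minus proximal was tested with limma 3.58.1 (R 4.3.3, lmFit and eBayes with intensity trend, no block, two-sided, Benjamini-Hochberg over all probe sets tested). Correlations used exact permutation of pairings, two-sided, adjusted in the same way (Python 3.11.15, numpy 2.4.6, pandas 2.3.3, scipy 1.17.1, matplotlib 3.10.9). The scripts were tested on simulated data. Folds in single arrays are against the median of the other arrays of the region, without a test.

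Rat numbers pair the arrays because the labels tie both arrays of a number to 1 animal. When checked, deviations from the region means gave r between -0.07 and 0.596 within a rat, with a median of 0.236, and exceeded 0.1 for 6 of 9 rats. P-values of the main limma fit measure the spread between the arrays of a region, each from 1 rat, and do not use the pairing. The fit with the rat as a replicate block does. The members and all gene lists were chosen with earlier results of these data known. Text values went to a fixed subset of members, to members that passed, to up to 4 genes a list that passed with the largest difference and to the 12 genes most like Myh11. Examples among marker and signalling genes beyond that, such as Pln, were chosen after their values were seen. Alternatives covered scaling, pseudocount, filter, block, array weights, probe set choice and left-out rats, with those without the arrays that stood apart, the filter over the other 15 arrays included, added after the data were seen.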

Additional observations from a re-analysis of the deposited data

Results flagged for a closer look

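For 28 of the 64 sets of 9 arrays examined (32 genes in 2 regions), the gap between 1 array and the next exceeded Dixon's critical value, relative to the whole range. Chance gives about 1 in 20 for 1 set taken alone. The sets share the same arrays and are not independent, so the 28 cannot be set against that rate. In 26 of the 28 sets it was the proximal array of rat 3, the highest of its region, which had already been picked out for its high Myh11. The log2 signals of that array were, for 13 of these genes, Myh11 (13.20), Acta2 (12.48), Actg2 (13.50), Des (12.48), Cnn1 (12.65), Mylk (12.92), Myl9 (12.99), Tpm1 (13.16), Tpm2 (13.00), Lmod1 (9.26), Synpo2 (10.44), Synm (11.53) and Smtn (11.17). For the other 13 they were Cald1 (12.40), Flna (12.98), Csrp1 (12.35), Pdlim3 (10.83), Pdlim7 (10.31), Ldb3 (8.23), Actn1 (11.73), Vcl (11.98), Ppp1r14a (9.80), Itga5 (9.30), Srf (9.93), Cav1 (11.90) and Cacna1c (8.18). They all come from 1 array, and Lmod1 and Cacna1c passed the filter only through the 3 arrays of high Myh11. How many of all genes exceeded the critical value was not determined. The proximal array of rat 3 lay above every other proximal array for 29 of the 32 members, against 20.3% of all genes. Tagln, Tpm4, Cnn2, Cnn3 and Chrm3 had no array that far from the rest. In the distal colon no member had a single array that far above the others, and rats 3 and 7 were both high. The remaining 2 were Pdlim3, for which the distal array of rat 5 was lowest at 8.57, and Chrm2, for which the proximal array of rat 1 was highest at 6.18.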

How the results depend on the processing

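Tpm4 was the 1 member higher in distal colon in the main setting, and the count was 0 with the deposited scaling, 2 with the mean of a gene's probe sets (Tpm1 and Tpm4) and 5 with array weights, against 3.95%, 15.8% and 17.4% of all genes. It was also 5 without the 3 arrays of high Myh11, without rats 3 and 7, and without the proximal arrays of rats 3 and 6. Members lower in distal colon numbered 2 with the rat as a replicate block (Mylk and Chrm3), 4 without the 3 arrays and without rats 3 and 7, and 0 without the proximal arrays of rats 3 and 6, against 1 (Chrm3) in the main setting. Leaving out 1 rat at a time gave 1 to 6 higher and 0 to 1 lower, against 13.9% to 16.5% and 12.5% to 15.6% of all genes. The 6, without rat 3 (16.5% of all genes), were Tpm1, Tpm4, Pdlim3, Pdlim7, Vcl and Srf, and the 1 lower was then Mylk. Why the counts changed was not tested, apart from the arrays left out. The block changed no other call among the 32 genes, though a second probe set of Actn1 passed with it.

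Of 667 values of single members under 21 alternatives, 604 kept their direction and their side of the threshold, 30 passed in addition, 6 no longer passed and 27 changed sign without having passed, such as Myh11 without the proximal arrays of rats 3 and 6 (0.05 against -0.39). Counts of members past the adjusted p in the correlations with Myh11 and between the regions of a rat were 0 in every setting run. With 7 to 9 arrays or rats, few pairings limit how small p can be. The number of arrays, the unknown scaling target and weak signals near the filter limit every value.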
